A study of Mus musculus with 6 samples.

Results

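The genes described here encode the exocytosis machinery of insulin granules, measured in RNA from mouse pancreatic islets. They were taken from a fixed list of 38 names covering SNAREs, synaptotagmins, Rab proteins and tethering or priming proteins, by an exact match to the gene name in the count table. Of these names, 37 were found among 22923 and Tomosyn was not, and all 37 were among the 14082 genes that passed the filter on low counts. WT and Ffar2-/- mice came from crosses of Ffar2+/- C57BL/6J animals, so both genotypes share that strain, and the deletion was global rather than limited to an islet cell type. All were males by the paper, and the labels give them as 10 to 12 weeks old. There were 3 libraries per genotype, with the islets of 2 mice pooled in each. Animals of the study had normal or high fat chow, and the paper does not state the diet of those used for RNA. The paper gives a somewhat older age range than the labels. Islets were handpicked after collagenase digestion and recovered overnight in culture before use. Ffar2 encodes FFA2, a receptor for short chain fatty acids, and by the labels the groups differed in genotype alone.

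Insulin is stored in dense-core granules of the β cell and released when the granule membrane fuses with the plasma membrane. Fusion is driven by SNAREs, with a VAMP on the granule pairing with a syntaxin and a SNAP protein on the plasma membrane, while SM proteins, complexins, synaptotagmins and Doc2 proteins set when it happens. Rab3 and Rab27 GTPases with their effectors bring granules to the membrane, and Munc13, RIM, Piccolo and CAPS proteins make docked granules ready to fuse. Acinar cells, which surround the islets, release zymogen granules with related proteins, among them the products of Vamp8, Snap23, Stx3, Stxbp2, Rab3d and Rab27b.

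Between 17067263 and 22792367 counts per library were used. Ffar2, the targeted gene, had 774, 559 and 550 counts in the WT libraries and 1750, 750 and 673 in those labelled Ffar2-/-. This is opposite to what a deleted gene would give, so genotypes are named as labelled and every direction below rests on that label. The labels do not say whether libraries came from separate cohorts of animals, and any p-value speaks only to the spread among these 6 libraries. Acinar markers took up 1.59% to 5.91% of counts in WT and 1.68%, 10.9% and 28.0% in replicates 1, 2 and 3 labelled Ffar2-/-, so the last of these libraries stood apart. This sum covers the 32 of 37 listed markers that were analysed. The other 5 were skipped by the authors' caller and are listed at 0 in every library labelled Ffar2-/-, so no level was read from them. All 32 had a log2 fold change above 0 with a median of 1.85, and no marker of the list was at 0 in all libraries. The 18 β cell markers, including Pdx1 and Slc2a2, were all detected with none at 0 in all libraries, and summed to 11595 to 12545 CPM (counts scaled to a common library size by TMM) in WT and 10615 to 11927 CPM in those labelled Ffar2-/-.

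No gene of the exocytosis machinery passed the test for a difference between genotypes. With edgeR's quasi-likelihood test, 0 of 37 members had an adjusted p under 0.05, as did 0% of all genes tested, and the lowest adjusted p of a member was 0.852. DESeq2 called 0 members against 0.0568% of all genes, and limma-voom called 0 members against 0% of all genes. At an unadjusted p under 0.05, edgeR, DESeq2 and limma-voom each had 2 members, Syt5 and Vamp2. In edgeR this compares with 4.69% of all genes. Both were lower in the libraries labelled Ffar2-/-, where 2.12% of all genes were lower by this criterion, and 0 members were higher, against 2.58% of all genes.

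Given the TMM scaling and the genotype labels, the intervals of the fit bound the difference that could have been missed for each gene. For 35 of 37 members the 95% interval of the difference lay within 2-fold in both directions, against 80.0% of all genes, and for 30 it lay within 1.5-fold, against 54.7%. The exceptions at 2-fold were Cplx1 and Rab27b, which had among the lowest levels of the list. The members' log2 fold changes had a median of −0.07, with quartiles of −0.17 and 0.06, beside a median of 0.02 over all genes.

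Although no member passed the test, the estimates leaned to lower values. A log2 fold change below 0 was found for 24 of 37 members, against 46.7% of all genes, and with scaling by total counts alone it was below 0 for 34 members, all but Rab27b, Sytl5 and Pclo. That scaling also moved the median of all genes from 0.02 to −0.14, and relative to the median of all genes the members' median was −0.09 under both scalings. The 3 libraries labelled Ffar2-/- all lay below the 3 WT libraries for 8 members, 21.6% of the list against 5.84% of all genes. These were Vamp2, Vamp8, Stx4a, Stxbp2, Syt5, Syt13, Sytl4 and Cadps2. No member had all 3 libraries labelled Ffar2-/- above WT, against 5.36% of all genes. Among the 18 β cell markers, 11 had a log2 fold change below 0 and 7 above, with a median of −0.09. Of these markers, 2 lay below WT in every library labelled Ffar2-/-, Slc2a2 and Ffar1, whereas Pdx1 lay above WT in every one. In bulk islet RNA, fewer cells of a type and less RNA per cell cannot be told apart.

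**Figure D1:**
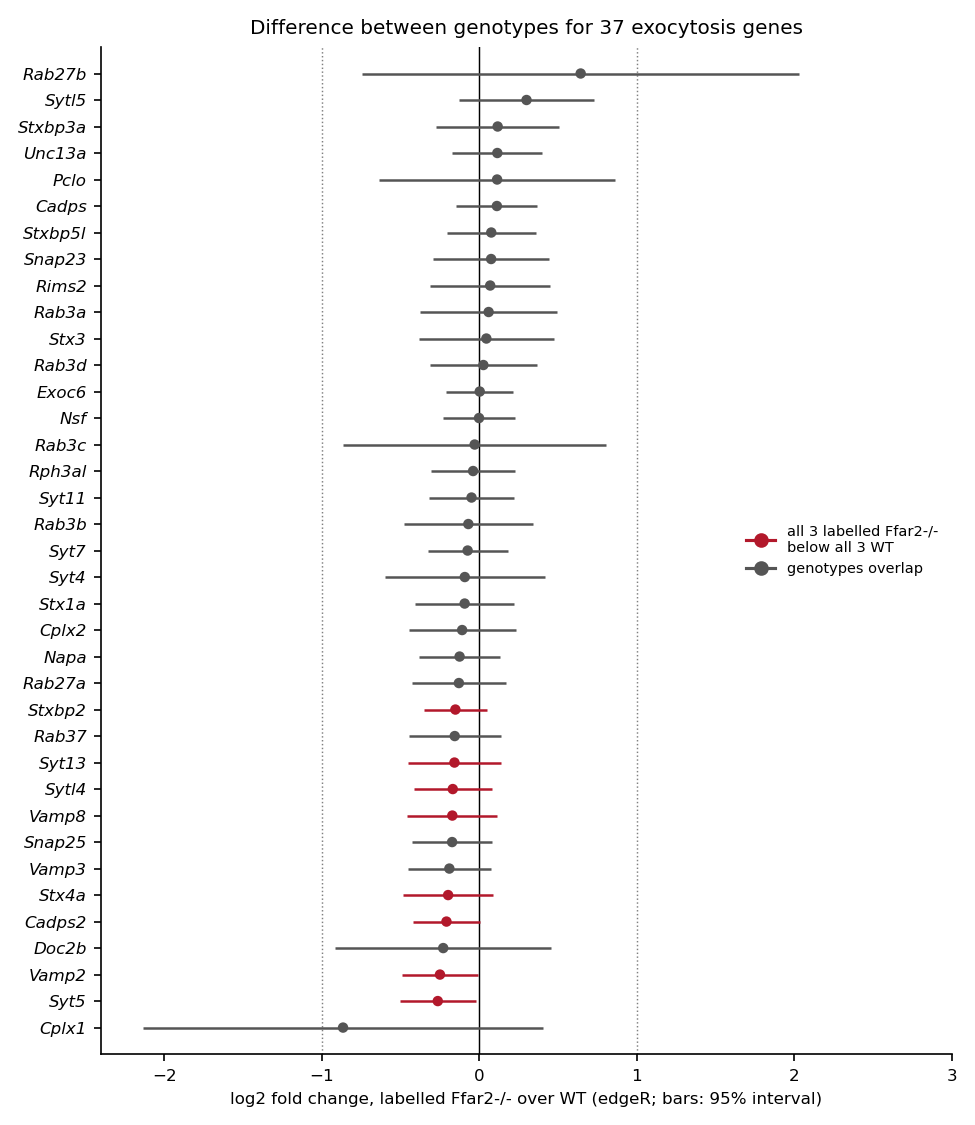
Estimated log2 fold change of each of the 37 members (points, x axis, labelled Ffar2-/- over WT) with its 95% interval from edgeR (bars), ordered by size on the y axis, with dotted lines at a 2-fold difference. The 8 members in red are those with all 3 libraries labelled Ffar2-/- below all 3 WT libraries, and only the intervals of Cplx1 and Rab27b reach past 2-fold.

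To place the members by abundance, levels were compared per length, as RPKM from the TMM-scaled CPM and the merged exon length of each gene. The WT median was 15.2 RPKM and that of the libraries labelled Ffar2-/- 14.5 RPKM. Syt13 was the most abundant, at 428 ± 26.4 RPKM in WT and 384 ± 13.2 in those labelled Ffar2-/- (SD, n = 3 each), and by itself it held 24.2% of the members' summed CPM in WT. Syt4 (122 ± 9.23 RPKM) and Cplx2 (116 ± 19.0) followed in WT. Rab27a (88.1 ± 10.0) and its effector Sytl4 (87.7 ± 2.94) came next, at levels whose libraries overlapped, and then Napa and Vamp2. In all, 9 members exceeded 50 RPKM in WT, the last of them being Rab3d and Syt7. At the other end, 7 members lay under 5 RPKM, namely Stx1a, Stxbp5l, Cadps2, Cplx1, Doc2b, Rab3c and Rab27b, the lowest with 0.437 ± 0.140 RPKM.

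Most neighbours in this order could not be separated. For 24 of 36 neighbouring pairs the WT libraries overlapped. The steps without overlap were those below Syt13, Cplx2, Sytl4, Vamp2, Vamp3, Syt5, Stxbp2, Cadps, Unc13a, Stx1a, Stxbp5l and Rab3c. The pooled RPKM values that the authors give for WT had a median of 21.6 over the members. They differed more than 1.5-fold from those here for 10 members, Rph3al by the most at 3.60 times, yet 34 of 37 members were within 5 ranks on both scales. On the authors' scale the steps below Cplx2, Sytl4, Vamp3, Stxbp2 and Stxbp5l ran the other way, while the other steps without overlap did not. Levels were steady between libraries, with a median coefficient of variation of 8.38% in WT and 12.3% in those labelled Ffar2-/-, against 10.8% and 15.1% over all genes. For 27 members the highest of the 6 libraries was under 1.5 times the lowest. It was over 2 times the lowest for 5, which were Cplx1, Rab27b, Rab3c, Pclo and Doc2b.

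**Figure D2:**
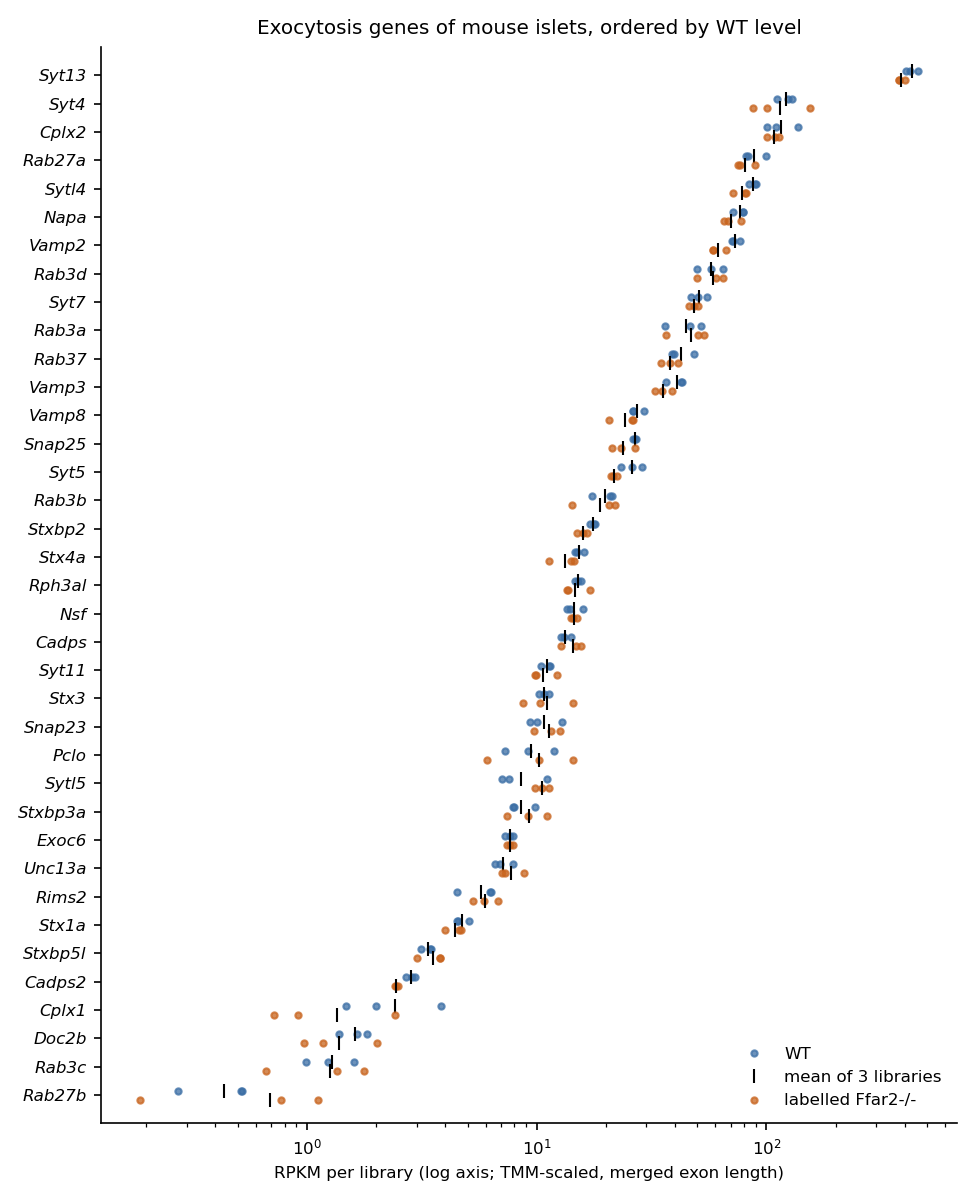
RPKM of each member in each library on a log axis (x), with WT in blue, libraries labelled Ffar2-/- in orange and black ticks for the means of 3 libraries, ordered on the y axis by WT level. Syt13 stands above all others at 428 RPKM in WT, and Rab27b lies lowest at 0.437 RPKM.

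The SNAREs form the fusion complex itself. Of the 8 among the members, 0 passed the test and 6 had a log2 fold change below 0, with a median of −0.17. Vamp2, the VAMP of insulin granules, lies on chromosome 11 of mm10 (chr11:69088528-69092381, plus strand). Its level was 269, 272 and 291 CPM in WT and 255, 223 and 223 CPM in those labelled Ffar2-/-. Every library labelled Ffar2-/- was below every WT library, at −0.25 on the log2 scale (standard error 0.10, 95% interval −0.49 to −0.01, unadjusted p = 0.0433, adjusted p = 0.852 in edgeR). Vamp8, which serves zymogen granules, had 61.0, 67.7 and 60.5 CPM in WT and 47.5, 60.1 and 60.4 CPM in those labelled Ffar2-/-. The groups did not overlap by a narrow margin, and only replicate 1 labelled Ffar2-/- stood clearly below. Vamp3, a VAMP of recycling endosomes, had 117 ± 10.6 CPM in WT and 103 ± 9.17 CPM in those labelled Ffar2-/- (SD, n = 3 each), with overlap.

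On the plasma membrane side, Snap25, the SNAP protein of neurons and endocrine cells, had 182, 179 and 184 CPM in WT and 181, 145 and 157 CPM in those labelled Ffar2-/-. Replicate 1 labelled Ffar2-/- lay among the WT values while the rest of its group lay below, and the log2 fold change was −0.17 (95% interval −0.43 to 0.08). Its widely expressed relative Snap23 had 55.2, 42.9 and 40.1 CPM in WT and 41.8, 49.4 and 54.5 CPM in those labelled Ffar2-/-, so the ranges overlapped almost fully. Stx1a, the syntaxin that pairs with Snap25 in regulated secretion, was at a low 12.0, 13.6 and 12.1 CPM in WT and 10.6, 12.5 and 12.3 CPM in those labelled Ffar2-/-. These ranges overlapped, with a log2 fold change of −0.09 (95% interval −0.41 to 0.22).

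Other syntaxins of the plasma membrane were also measured. Stx4a had 35.5, 37.9 and 34.8 CPM in WT and 26.8, 34.3 and 33.4 CPM in those labelled Ffar2-/-. All of the latter were below WT, replicate 1 by the most and replicate 2 by a narrow margin. The log2 fold change was −0.20 (95% interval −0.48 to 0.09). Stx3 had 64.9, 58.5 and 61.6 CPM in WT and 82.2, 58.8 and 49.6 CPM in those labelled Ffar2-/-, with the highest and the lowest value both in the latter group.

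Among the members, SM proteins, complexins and the proteins that take SNARE complexes apart numbered 7. Of these 7, 0 passed the test and 5 had a log2 fold change below 0, with a median of −0.11. Stxbp2, an SM protein known from zymogen granules and blood cells, had 73.9, 74.4 and 71.1 CPM in WT and 66.4, 62.3 and 68.7 CPM in those labelled Ffar2-/-. The groups did not overlap, with a log2 fold change of −0.15 (95% interval −0.35 to 0.05). Stxbp3a, the SM protein of Stx4a, had 45.6 ± 5.78 and 49.4 ± 9.73 CPM (SD, n = 3 each), WT given before the labelled genotype here and in the rest of this paragraph. In this gene, 9.27% of stretches of 50 bases also occur in the pseudogene Stxbp3-ps. Stxbp5l, a tomosyn that restrains SNARE assembly, had 28.6 ± 1.48 and 30.1 ± 3.79 CPM. The ATPase Nsf had 121 ± 10.1 and 121 ± 3.92 CPM, and its adaptor Napa 290 ± 16 and 266 ± 25.2 CPM. Both pairs of ranges overlapped.

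Complexins bind the assembled SNARE complex. Cplx2 was abundant, with 572 ± 93.5 CPM in WT and 530 ± 31.1 CPM in those labelled Ffar2-/- (SD, n = 3 each). Cplx1 was scarce, with 4.36, 8.37 and 3.23 CPM in WT and 2.01, 1.58 and 5.28 CPM in those labelled Ffar2-/-. Its log2 fold change of −0.87 was the lowest of the list, but the groups overlapped and the 95% interval ran from −2.13 to 0.40 (adjusted p = 0.852 in edgeR). It was −0.38 without WT replicate 2 and −1.55 without replicate 3 labelled Ffar2-/-, where its unadjusted p was under 0.05. Markers listed as neural and Schwann summed to 228, 337 and 225 CPM in WT and 142, 190 and 256 CPM in those labelled Ffar2-/-. Of this sum, Tubb3 alone had 103, 179 and 98.4 CPM in WT and 37.8, 77.4 and 110 CPM in those labelled Ffar2-/-. Sox10 was at 2.26 CPM or less in every library. For Cplx1 and for this sum, the highest libraries were WT replicate 2 and replicate 3 labelled Ffar2-/-. The same libraries were highest in their genotype for the acinar markers and for the endothelial and stromal markers. The lowest library labelled Ffar2-/- was replicate 1 for this sum and replicate 2 for Cplx1. Of the neural and Schwann markers, 10 of 12 had a log2 fold change below 0, none was at 0 in all libraries, and their part in the Cplx1 values was not tested.

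The 5 synaptotagmins among the members and Doc2b were grouped as calcium sensors, although some of them bind little or no calcium. All 6 had log2 fold changes below 0, with a median of −0.12 and 0 past the test. Syt7, a high-affinity calcium sensor of insulin granules, had 376, 353 and 414 CPM in WT and 376, 364 and 346 CPM in those labelled Ffar2-/-. The groups overlapped, with a log2 fold change of −0.07 (95% interval −0.33 to 0.18). Syt5, a calcium-binding synaptotagmin of dense-core granules, lies on chromosome 7 of mm10 (chr7:4539765-4546567, minus strand). It had 62.1, 68.1 and 55.6 CPM in WT and 50.1, 53.4 and 51.3 CPM in those labelled Ffar2-/-. Every library labelled Ffar2-/- was below WT, and its log2 fold change of −0.26 had the lowest unadjusted p of the list (standard error 0.10, 95% interval −0.50 to −0.02, unadjusted p = 0.0362, adjusted p = 0.852 in edgeR).

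The other synaptotagmins among the members, Syt13, Syt4 and Syt11, bind calcium poorly or not at all. Syt13, the most abundant member (chr2:92915101-92956051, plus strand), had 1524, 1588 and 1719 CPM in WT and 1415, 1501 and 1415 CPM in those labelled Ffar2-/-. The groups did not overlap, with a log2 fold change of −0.16 (95% interval −0.45 to 0.14). Syt4 had 434, 503 and 485 CPM in WT and 601, 342 and 390 CPM in those labelled Ffar2-/-, which enclosed the WT range. For 8 members, Stx4a, Syt7 and Syt4 among them, part of the exon bases lies under an antisense gene, at most 14.5% in Syt4, and whether the counting used strand is not given in the sources used here. Syt11 had 57.5 ± 2.93 CPM in WT and 55.5 ± 6.99 CPM in those labelled Ffar2-/- (SD, n = 3 each). Doc2b, a soluble calcium sensor, was low in both, at 7.05 ± 0.986 and 6.04 ± 2.41 CPM, and overlapped.

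**Figure D3:**
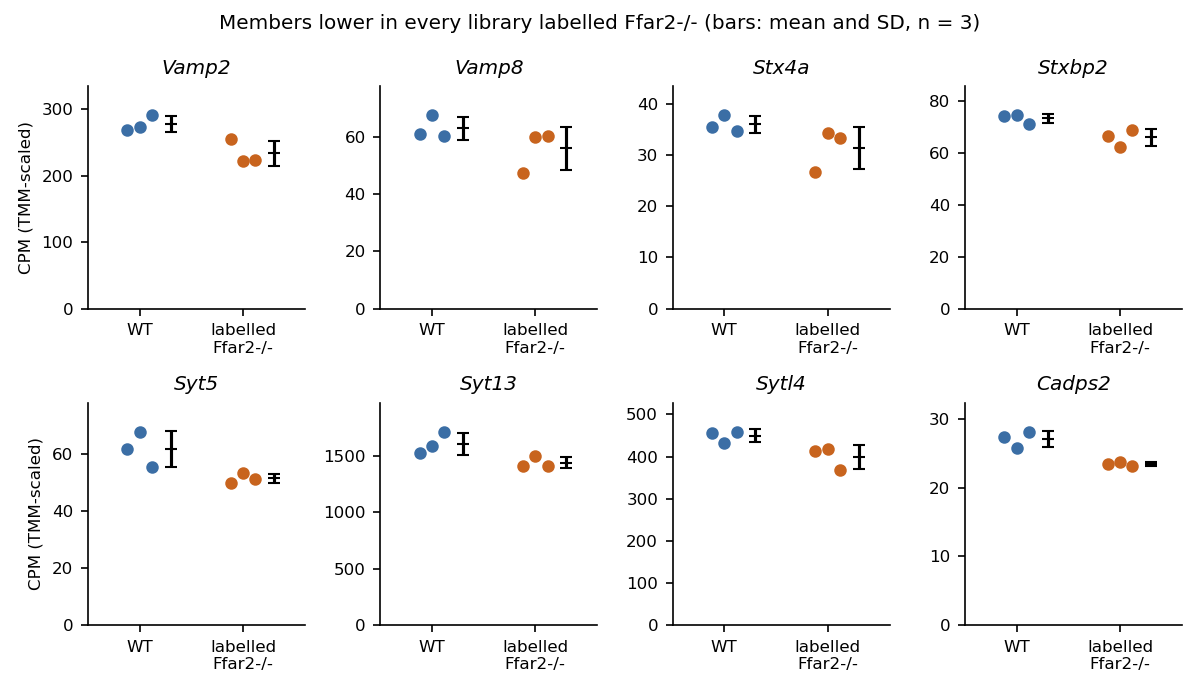
CPM of the 8 members that were lower in every library labelled Ffar2-/- (orange) than in any WT library (blue), 1 panel a gene, with the y axis from 0 and the mean and SD of 3 libraries in black. The gap is narrow for Vamp8, where values of 60.1 and 60.4 CPM lie just under the lowest WT value of 60.5 CPM. It is also narrow for Stx4a, at 34.3 CPM under 34.8 CPM, and wider for Vamp2 and Cadps2.

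Rab GTPases carry granules to the membrane. Of the 7 among the members, 0 passed the test, 4 had a log2 fold change below 0, the median was −0.03, and all 7 overlapped between genotypes. Rab27a, which docks insulin granules, had 316, 323 and 387 CPM in WT and 346, 298 and 293 CPM in those labelled Ffar2-/-, a log2 fold change of −0.13 (95% interval −0.43 to 0.17). Rab3a, found on insulin granules and synaptic vesicles, had 115, 103 and 80.6 CPM in WT and 81.3, 112 and 119 CPM in those labelled Ffar2-/-. The groups overlapped almost fully, with a log2 fold change of 0.06 (95% interval −0.38 to 0.50) that was −0.12 with scaling by total counts.

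Rab3b, Rab3c and Rab37 are further Rab proteins of secretory vesicles. Rab37 had 225 ± 27.2 CPM in WT and 202 ± 17.4 CPM in those labelled Ffar2-/- (SD, n = 3 each). For Rab3b these were 69.9 ± 7.64 and 66.5 ± 14.3 CPM, and for Rab3c 15.4 ± 3.76 and 15.2 ± 6.75 CPM. No stretch of 50 bases was shared among the Rab3 paralogs, nor between Rab27a and Rab27b.

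Rab effectors link granules to the fusion machinery, and 0 of the 3 among the members passed the test. Sytl4, the granuphilin that binds Rab27a and syntaxin, had 456, 432 and 460 CPM in WT and 414, 418 and 367 CPM in those labelled Ffar2-/-. The groups did not overlap, with a log2 fold change of −0.17 (95% interval −0.42 to 0.08). Its relative Sytl5, also a Rab27 effector, had 25.5, 17.4 and 16.3 CPM in WT and 24.3, 26.0 and 22.7 CPM in those labelled Ffar2-/-. WT replicate 1 lay within the other group, and the log2 fold change was 0.30 (95% interval −0.13 to 0.73). Rph3al, the Noc2 protein that binds Rab3 and Rab27, had 57.8 ± 1.6 and 56.2 ± 7.53 CPM in WT and in those labelled Ffar2-/- (SD, n = 3 each).

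Tethering and priming genes were the group whose estimates leaned the other way, with 5 of 6 above 0 and 0.09 as the median on the log2 scale, though 0 passed the test and Unc13a, Rims2 and Cadps were below 0 with scaling by total counts. Unc13a, the Munc13 that primes granules, had 99.3, 87.3 and 83.4 CPM in WT and 111, 91.9 and 89.1 CPM in those labelled Ffar2-/-. Rims2, a scaffold that binds Rab3, had 66.0, 46.6 and 65.1 CPM in WT and 70.2, 61.2 and 55.0 CPM in those labelled Ffar2-/-. Both genes overlapped between genotypes.

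The CAPS proteins prime dense-core granules. Cadps had 211, 198 and 192 CPM in WT and 234, 223 and 192 CPM in those labelled Ffar2-/-, with overlap and a log2 fold change of 0.11 (95% interval −0.15 to 0.37). Cadps2 had 27.3, 25.8 and 28.2 CPM in WT and 23.5, 23.8 and 23.1 CPM in those labelled Ffar2-/-. Its groups did not overlap, at −0.21 on the log2 scale (standard error 0.09, 95% interval −0.42 to 0.00, unadjusted p = 0.0541, adjusted p = 0.852 in edgeR). Pclo, the active zone scaffold Piccolo, varied most in this group, at 212 ± 52.9 CPM in WT and 229 ± 93.0 CPM in those labelled Ffar2-/- (SD, n = 3 each). Exoc6, an exocyst subunit, had 27.1 ± 1.08 and 27.1 ± 0.855 CPM.

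Because acinar cells release zymogen granules with several of these proteins, their values were set beside the acinar markers. Rab27b, a Rab of zymogen granules, had 5.55, 5.52 and 2.94 CPM in WT and 2.01, 8.20 and 11.9 CPM in those labelled Ffar2-/-. In both genotypes its lowest library was the one with the fewest acinar markers. On the log2 scale the difference was 0.64 (95% interval −0.75 to 2.03, adjusted p = 0.874 in edgeR), and with the acinar score, the mean log2 CPM of the acinar markers, as a covariate it was −0.35. With a library left out it ranged from 0.10 to 1.10, the latter without replicate 1 labelled Ffar2-/-. Rab3d, which also sits on zymogen granules, had 273, 240 and 208 CPM in WT and 210, 254 and 271 CPM in those labelled Ffar2-/-. Its fold change was 0.03 on the log2 scale, and −0.10 with the acinar score.

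The acinar markers were lowest in WT replicate 3 and in replicate 1 labelled Ffar2-/-, and 10 of 37 members had these as the lowest library of each genotype. They were Rab27b, Rab3d, Snap23 and Vamp8, which are known from zymogen granules, and also Rab3a, Rab3c, Stx4a, Syt5, Nsf and Exoc6. The share of all genes with this order was not taken, so whether 10 of 37 is more than usual is not known. Bhlha15, the acinar transcription factor MIST1, had 99.3, 99.5 and 58.8 CPM in WT and 74.3, 133 and 172 CPM in those labelled Ffar2-/-. In replicate 3 labelled Ffar2-/-, the library with 28.0% acinar markers, Rab27b was highest of all libraries, Vamp8 and Stxbp2 were below every WT library, and Stx3 had its lowest value. With the acinar score as a covariate, 6 members had an unadjusted p under 0.05 in edgeR, Rab3c, Cplx1, Syt5, Vamp8 and Stx4a lower and Pclo higher, against 19.3% of all genes. The part of acinar RNA in the differences between genotypes was not tested beyond this fit. Without replicate 1 labelled Ffar2-/-, 5 members had an unadjusted p under 0.05, Vamp2, Syt4, Snap25 and Vamp3 lower and Rab27b higher, against 6.96% of all genes.

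**Figure D4:**
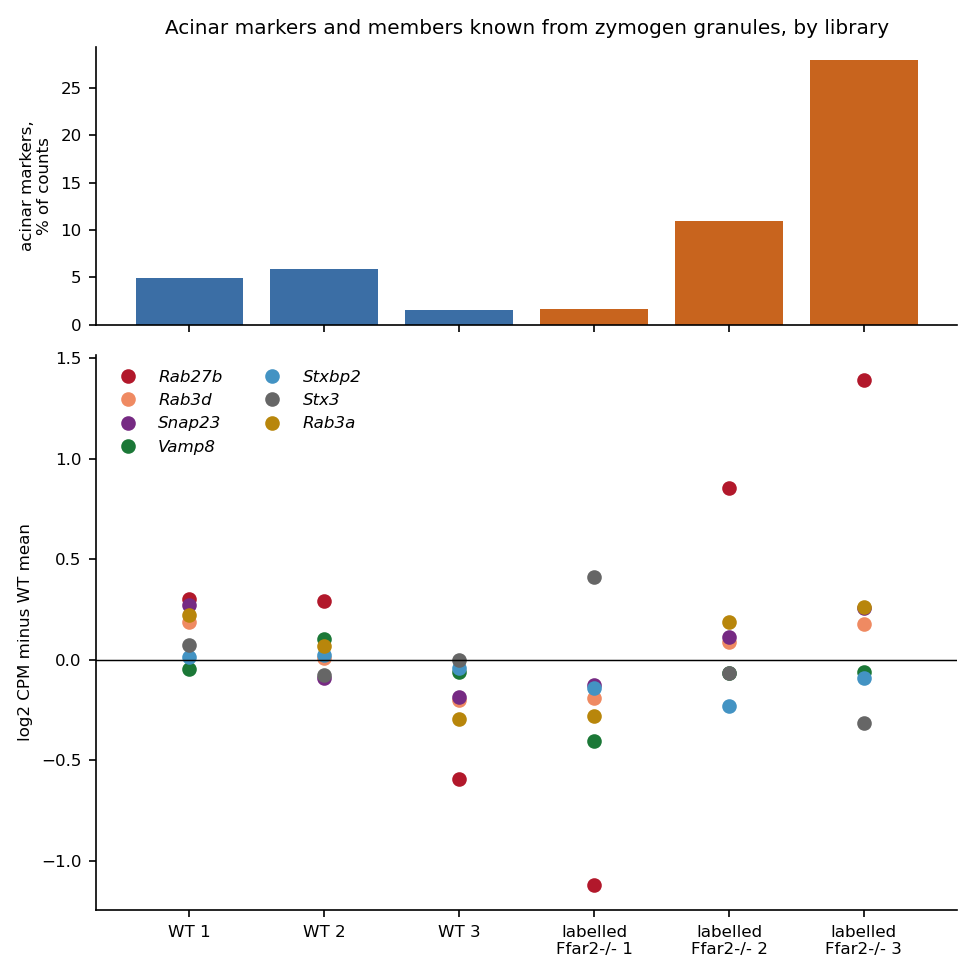
Acinar markers as a percentage of counts in each library (upper panel, bars from 0) and log2 CPM minus the WT mean for 6 members known from zymogen granules and Rab3a (lower panel, points), with the 6 libraries on the x axis. Rab27b ranges from 2.01 to 11.9 CPM and is lowest in the libraries with 1.59% and 1.68% acinar markers, whereas Stx3 is highest in replicate 1 labelled Ffar2-/-.

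Promoter sequence was read for the members that matched a RefSeq table of GRCm38.p6, the assembly known as mm10, using the 250 bases before each start. A match covered 26 of 37 members with 28 promoters, and 6 short motifs were searched on both strands. A member counts once if any of its promoters holds the motif, whereas the shares of all promoters count each promoter. The shares compared below therefore differ in unit, which slightly favours the members. MIST1 is known to bind an E-box with the letters CATATG, which reads the same on both strands and occurs in 3.46% of all 32851 promoters. Among the members it was found in Rab27a alone, centred 23 bases before a start that lies inside the gene (chr9:73044865-73097592). The promoter scanned at the outer start of Rab27a did not hold it. The cAMP response element TGACGTCA, which also reads the same on both strands, occurs in 1.55% of all promoters and was found in Stxbp3a alone. The GC box GGGCGG, on either strand, was found in 17 of the 26 members, 65.4% against 32.7% of all promoters. CCAAT boxes were in 9 of the 26 members, 34.6% against 33.8% of all promoters. Of the neuronal silencer element RE1, the left part TTCAGCACC was in 0 members against 0.301% of all promoters, and the right part GGACAG in 5, which is 19.2% against 18.7%. Stretches around the E-box (chr9:73064082-73064147, plus strand) and the cAMP response element (chr3:108840563-108840650, minus strand) are shown to place these letters, which are in capitals. The second stretch also holds a GC box, left in lower case. A match describes the letters and not a site in use.
Rab27a: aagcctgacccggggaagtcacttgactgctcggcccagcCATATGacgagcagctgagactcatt
Stxbp3a: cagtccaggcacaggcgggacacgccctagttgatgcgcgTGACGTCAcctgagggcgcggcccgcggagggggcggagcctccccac

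To ask whether the balance of related proteins differed, the ratio per length of 12 pairs of members was taken within each library, which does not depend on how libraries are scaled. An exact permutation test (2-sided) of 3 against 3 libraries cannot give a p below 0.1. Genotypes did not overlap for 3 of 12 pairs, each with p = 0.1 in the exact test and an adjusted p of 0.4 over the 12 pairs. The ratio of Cadps to Cadps2 was 4.91, 4.87 and 4.34 in WT and 6.34, 5.96 and 5.30 in those labelled Ffar2-/-, higher in all 3 of the latter. For Sytl4 to Sytl5 the ratio was 8.03, 11.2 and 12.6 in WT and 7.66, 7.23 and 7.27 in those labelled Ffar2-/-, lower in all 3. The ratio of Stx1a to Stx4a was 0.299, 0.318 and 0.309 in WT and 0.351, 0.324 and 0.326 in those labelled Ffar2-/-, a difference of 0.11 on the log2 scale.

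The remaining 9 pairs overlapped. Snap25 exceeded Snap23 by 2.09, 2.64 and 2.90 times in WT and by 2.74, 1.86 and 1.83 times in those labelled Ffar2-/-. The lower ratios of the latter group were in the 2 libraries with the most acinar markers. In WT the lowest ratio was in replicate 1, whereas replicate 2 had the most acinar markers, and the part of acinar RNA in this ratio was not tested. Vamp2 exceeded Vamp8 by 2.68, 2.44 and 2.92 times in WT and by 3.25, 2.24 and 2.24 times in those labelled Ffar2-/-. Rab27a exceeded Rab27b by 157 times in WT replicate 1 and by 67.7 times in replicate 3 labelled Ffar2-/-, while the widest ratio was 474 times in replicate 1 labelled Ffar2-/-. Cplx1 was at most 0.0379 times Cplx2 in any library.

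**Figure D5:**
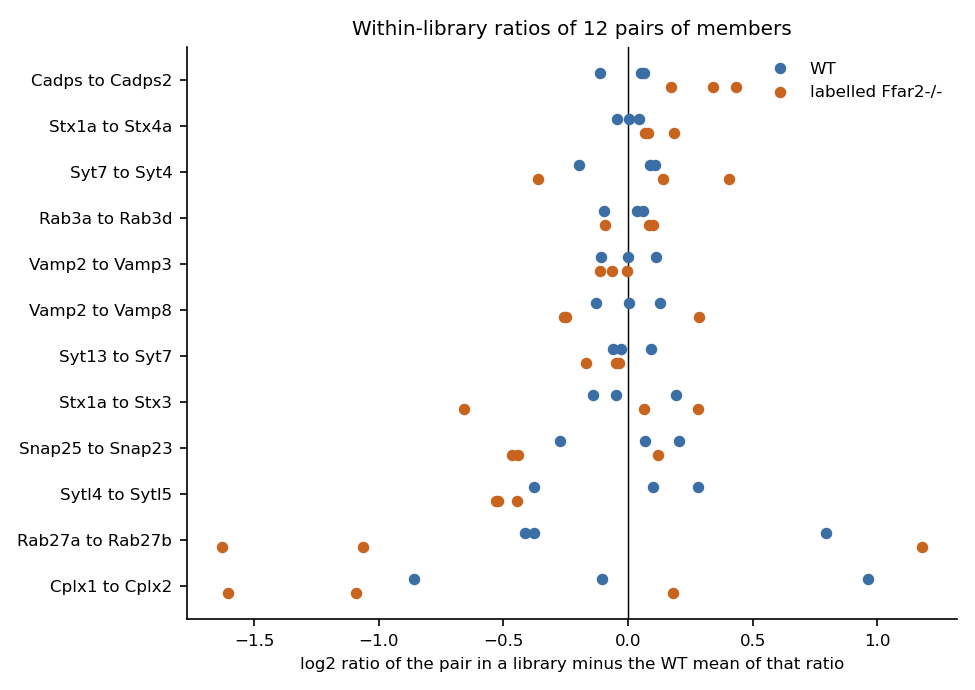
Log2 ratio of each of the 12 pairs in each library minus the WT mean of that ratio (x axis), with WT in blue and libraries labelled Ffar2-/- in orange. Genotypes do not overlap for Cadps to Cadps2, Stx1a to Stx4a and Sytl4 to Sytl5, and the spread is widest for the pairs with the scarce genes Cplx1 and Rab27b.

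A wider list of 141 exocytosis genes that are not members was examined in the same fit, and 126 were tested. None passed an adjusted p of 0.05 in edgeR. At an unadjusted p under 0.05, Syt1 and Gnb5 were lower and Rimbp3 higher, which is 2.38% of the list against 4.69% of all genes. The list's median log2 fold change was 0.00, with 61 genes below 0 and 65 above. For 107 of the 126 the 95% interval lay within 2-fold, against 80.0% of all genes. Genotypes did not overlap for 14 of the 126 genes on the lower side, against 5.84% of all genes. On the higher side they did not overlap for 5 of the 126, against 5.36%.

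Syt1, the calcium sensor of synaptic vesicles, had 15.4, 20.3 and 16.3 CPM in WT and 8.50, 10.7 and 15.3 CPM in those labelled Ffar2-/-, a log2 fold change of −0.60 (95% interval −1.14 to −0.05). Gnb5, a G protein β subunit, had 36.7, 37.8 and 37 CPM in WT and 32.4, 31.5 and 29.7 CPM in those labelled Ffar2-/-, a log2 fold change of −0.25 (95% interval −0.45 to −0.05). Both were lower in all 3 libraries labelled Ffar2-/-, and their adjusted p was 0.852 in edgeR. Rimbp3, of the RIM-binding protein family, had only 6, 6 and 6 counts in WT and 23, 13 and 12 counts in those labelled Ffar2-/-. The next lowest p on the higher side were those of Ppfia1 and Ppfia3, which encode liprins, with log2 fold changes of 0.27 and 0.21.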

How the data were processed

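Islet RNA of 3 WT libraries and 3 libraries labelled Ffar2-/- was compared, with groups taken from the sample labels. The authors aligned reads with TopHat2 2.0.8b to mm10 and ran Cufflinks and Cuffdiff 2.1.1. The table they deposited holds estimated counts of each gene in each library without normalization and, in a second table, RPKM values pooled per genotype. The columns of the authors' own comparison (log2 fold change, test statistic, p-value and FDR) were not used. The counting tool, the use of strand and the handling of reads with many matches are not stated in the labels or methods, so genes that overlap could share reads.

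The 158 names with several values (0.103% to 0.169% of a library's counts) and the 15 genes skipped by the authors' caller, with 5 acinar markers among them, were left out. No member was among them. Rounded to whole numbers, the counts were filtered by filterByExpr (minimum count 10, minimum total 15), TMM-scaled and fitted in edgeR 4.0.16 under R 4.3.3 with glmQLFit and glmQLFTest (2-sided), with Benjamini-Hochberg adjustment over 14082 genes. The prior count was 2 for log2 CPM, and the common biological coefficient of variation 21.5%. Lengths and exon overlaps are from GENCODE M21. The fit was tested on simulated data.

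The members and lists were chosen with earlier results of these data known. Values in every library are given for the members of the textbook β cell fusion machinery, those known from zymogen granules, the 3 of lowest p in each direction, those whose groups do not overlap, and the highest and lowest per length. Of the wider list, the 3 of lowest p in each direction are named; some genes that the rules pick are not reported here, though fits and counts include them. Alternatives were scaling by RLE, by upper quartiles or by total counts, no filter, at least 10 counts everywhere, the tests of DESeq2 1.42.0 and limma-voom (limma 3.58.1), robust dispersion, a replicate block, omission of each library, an acinar score as a covariate, acinar genes left out of the library size, names summed and skipped genes kept. Overlap of the groups under other scalings or without a library was added after seeing the data. No 2 libraries were alike within sampling noise.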

Additional observations from a re-analysis of the deposited data

How the results depend on the processing

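In all 19 alternative fits, 0 members passed an adjusted p of 0.05. The number at an unadjusted p under 0.05, 2 in the fit as reported, was 0 with the replicate block (3.22% of all genes), 6 with the acinar score as a covariate (19.3%), and 0 to 5 with a library left out (5 without replicate 1 labelled Ffar2-/-, against 6.96% of all genes; 0 without WT replicate 2, against 1.58%, or replicate 2 labelled Ffar2-/-, against 3.68%; 1 without WT replicate 1, against 6.81%, or WT replicate 3, against 1.70%). Without replicate 3 labelled Ffar2-/- it was 2, against 8.66%, but these were Cplx1 and Doc2b, not Syt5 and Vamp2, and with total counts it was Cplx1 and Syt5. Whether the replicate numbers pair the libraries could not be decided. By correlation of deviations from the genotype means, 0 of 6 libraries matched best with their own number. The highest correlation, 0.59, was between WT replicate 2 and replicate 3 labelled Ffar2-/-. These had the most acinar markers of their genotypes, and such shared content could hide a pairing. The members' median log2 fold change was −0.22 with total counts only. The WT median level was 21.6 RPKM with the authors' pooled values.

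Of 512 recomputed log2 fold changes of the 22 named members and 5 other named genes, 21 changed sign and 0 passed the adjusted threshold. With total counts these were Snap23 (−0.10), Stx3 (−0.079), Rab3a (−0.12), Rab3d (−0.15), Unc13a (−0.027), Rims2 (−0.073) and Cadps (−0.029). With the acinar score they were Snap23 (−0.054), Rab3a (−0.14), Rab3d (−0.10) and Rab27b (−0.35). With a library left out, ranges spanned 0 for Snap23 (−0.018 to 0.22), Stx3 (−0.19 to 0.19), Rab3a (−0.076 to 0.21), Rab3d (−0.070 to 0.12) and Rims2 (−0.081 to 0.15). The same held for the log2 ratios of Vamp2 to Vamp8 (−0.25 to 0.016), Rab27a to Rab27b (−1.35 to 0.058), Rab3a to Rab3d (−0.017 to 0.092), Stx1a to Stx3 (−0.30 to 0.17) and Syt7 to Syt4 (−0.11 to 0.27). The cause was not tested.

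Members lower in every library labelled Ffar2-/-, 8 as reported, numbered 9 with total counts (against 15.6% of all genes) and 9 with upper-quartile factors (against 6.27%), which shared 8 and 5 with those reported. With upper-quartile factors, Vamp8, Stx4a and Stxbp2 were no longer among the members lower in every library labelled Ffar2-/-. Leaving out a library, which can only keep or add such members, gave 8 to 15, the 15 being without replicate 1 labelled Ffar2-/-, against 12.0% of all genes. Without replicate 3 labelled Ffar2-/-, with its high acinar share, it was 10, against 13.0% of all genes. Members higher in every library labelled Ffar2-/- numbered 0 as reported. Without WT replicate 1 there were 3, against 12.9% of all genes. There were 2 without replicate 3 labelled Ffar2-/-, against 13.2%, and 1 without replicate 1 labelled Ffar2-/-, against 12.7%. In the other settings there were 0. Cplx1 and Rab27b, whose intervals reached past 2-fold, had coefficients of variation of 50.8% and 32.1% in WT and 68.4% and 67.9% in the libraries labelled Ffar2-/-.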
